A study of Mus musculus with 6 samples.

Results

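Histone genes were examined in R1, 1 male line of mouse embryonic stem cells from a 129X1 x 129S1 cross, kept with or without the vitamin C derivative ascorbic acid 2-glucose (AA2G). Both groups were cultured on gelatin in a medium containing 15% fetal bovine serum and 100 IU/ml LIF, the cytokine that maintains self-renewal. One group received 0.74 mM (250 µg/ml) AA2G for 3 days and the other had no addition, with 3 replicates each and 1 Mouse Gene 2.0 ST array per replicate. The histone genes were taken by symbol, as the array features annotated with exactly 1 symbol in which a number follows the stem H1f, H2ac, H2bc, H2az, H2al, H2bl, H2bu, H2aw, H3c, H3f, H4c, H4f or Macroh2a, or with H2ax or Cenpa. This gave 47 features for 45 genes, out of 23521 tested features for 22180 genes. The 45 genes were 11 testis-specific, 1 oocyte-specific, 8 replication-independent variant and 25 replication-dependent genes. H2ac21 and H4f16 had 2 features each, and 2 of the 45, H2bu1-ps and Macroh2a3, are annotated by RefSeq as transcribed pseudogenes. Symbols of another form fall outside this rule: 9 features of H2ab1, H2ab2, H2aj, H2ap, H2aw, H2bfm, Hils1 and H2af-ps2 were not counted as members, lay between -0.05 and 0.18 on the log2 scale (AA2G minus untreated) and did not pass the test described with the results.

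Core histones H2A, H2B, H3 and H4 form the nucleosome around which DNA is wrapped, and H1 linker histones bind where DNA enters and leaves it. Replication-dependent histone genes lie in clusters, are transcribed mainly in S phase and give mRNAs that end in a stem-loop in place of a poly(A) tail. Many variant histones are made throughout the cell cycle and mark particular chromatin states. In the male germ line, testis-specific histones replace part of the somatic set before transition proteins and protamines take over in the sperm nucleus. The testis H2A and H2B genes H2ac1 (TH2A) and H2bc1 (TH2B) are also known from oocytes.

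H2bc1 and H2ac1 lie head to head on chromosome 13 and are transcribed away from a common stretch of DNA. That stretch is shown because both genes lay higher with AA2G, together with the matching stretch of the replication-dependent pair H2ac12 and H2bc12, which did not pass the test, and with the 250 bases before the start of the testis linker histone gene H1f6, which rose. The sequences are from RefSeq (GRCm38.p6), on the plus strand, at chr13:23934157-23934436 for the testis pair, chr13:22035644-22035820 for the replication-dependent pair and chr13:23695561-23695810 for H1f6. Capitals mark the TATA motif (TATAAA), the CAAT-box motif (CCAAT) and the octamer (ATTTGCAT), a motif bound by POU factors and known from H2B promoters, each searched on both strands.
H2bc1-H2ac1: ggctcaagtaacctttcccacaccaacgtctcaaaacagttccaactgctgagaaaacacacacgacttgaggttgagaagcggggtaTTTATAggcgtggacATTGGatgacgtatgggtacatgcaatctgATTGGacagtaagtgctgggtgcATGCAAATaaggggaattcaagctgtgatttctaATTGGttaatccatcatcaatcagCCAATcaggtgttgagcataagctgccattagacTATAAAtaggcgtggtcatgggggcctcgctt
H2ac12-H2bc12: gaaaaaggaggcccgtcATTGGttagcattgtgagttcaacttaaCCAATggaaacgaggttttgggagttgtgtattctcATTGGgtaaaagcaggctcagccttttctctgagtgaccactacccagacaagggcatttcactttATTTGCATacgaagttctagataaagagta
H1f6: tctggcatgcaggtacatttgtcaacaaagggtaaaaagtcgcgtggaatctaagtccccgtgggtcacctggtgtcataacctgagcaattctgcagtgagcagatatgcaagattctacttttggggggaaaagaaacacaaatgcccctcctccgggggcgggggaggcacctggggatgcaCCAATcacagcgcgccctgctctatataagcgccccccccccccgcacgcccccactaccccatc

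The 280 bases between the start sites of H2bc1 and H2ac1 held 2 TATA motifs, 1 facing each gene, 4 CAAT-box motifs and 1 octamer on the strand of H2bc1. RefSeq has 9 head-to-head pairs of an H2A and an H2B gene with fewer than 500 bases between their starts. The other 8 pairs have shorter stretches, down to 163 bases. All 9 held a CAAT-box motif, 3 held a TATA motif and 3 held an octamer. In the 250 bases before a gene's start, a TATA motif was found in 13.0% of 27025 RefSeq promoters, a CAAT-box motif in 34.5% and an octamer in 1.61%. The E-box CACGTG was found in 0 of the 11 testis-specific and 0 of 22 replication-dependent promoters, and in 6.05% of all promoters. Counts of 0 in sets this small are near that share. The motif TGACG, also searched, was found in 3 of the 11 testis-specific and 9 of 22 replication-dependent promoters, and in 17.9% of all promoters. The stretch between H2bc1 and H2ac1 held 1 TGACG, and so did that between H2ac12 and H2bc12. Each of these sites lies in the windows of both genes of its pair and was counted for both. CpG dinucleotides occurred at 0.41 of the frequency expected from base composition before H2bc1, 0.50 before H2ac1 and 0.50 before H1f6, against medians of 0.13 for the 11 testis-specific members, 0.70 for replication-dependent and 0.87 for variant members, and 0.38 for all promoters. These matches describe letters in a window and show no binding.

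**Figure D1:**
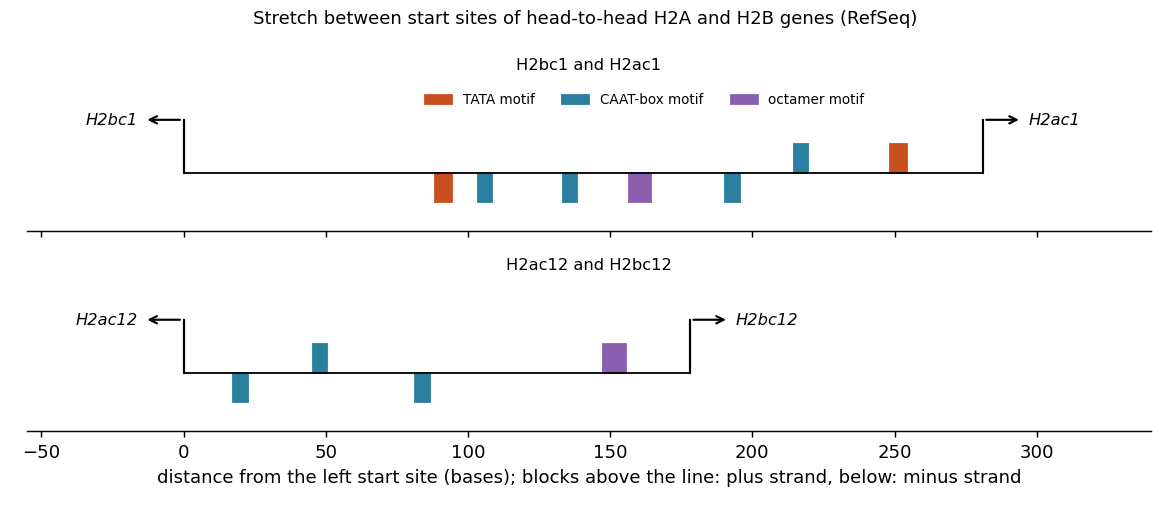
Map of the bases between the RefSeq start sites of the testis pair H2bc1 and H2ac1 (upper) and the replication-dependent pair H2ac12 and H2bc12 (lower), with distance from the left start site in bases on the horizontal axis, arrows for the direction of transcription and blocks for motifs on the plus strand (above the line) or minus strand (below). The testis pair has 280 bases with 2 TATA motifs, 4 CAAT-box motifs and 1 octamer, and the other pair has 177 bases with 3 CAAT-box motifs and 1 octamer.

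The RNA of 2 of the 11 testis-specific histone genes, H2bc1 and H1f6, rose with AA2G, and the other 9 did not pass. The replication-dependent and variant histone genes gave 0 calls, which in sets of this size is near the share over all features. In the limma model of AA2G against untreated arrays, fitted over all 23521 features, 2 of the 47 histone features passed a Benjamini-Hochberg adjusted p of 0.05, both higher, and 0 were lower. Among all tested features 0.761% passed, 0.608% up and 0.153% down. Before adjustment, 4 of the 47 were higher and 1 was lower at p under 0.05, where 9.71% of all features passed in one direction or the other. The 3 AA2G arrays lay wholly above or wholly below the 3 untreated arrays for 6 of the 47 features, 3 in each direction, where 15.7% of all features did so, 7.21% above and 8.48% below. The median log2 difference was 0.04 over the 47 features and -0.01 over all features. In RNA from whole cultures, a rise of a transcript in every cell and a larger share of cells that hold it cannot be told apart.

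**Figure D2:**
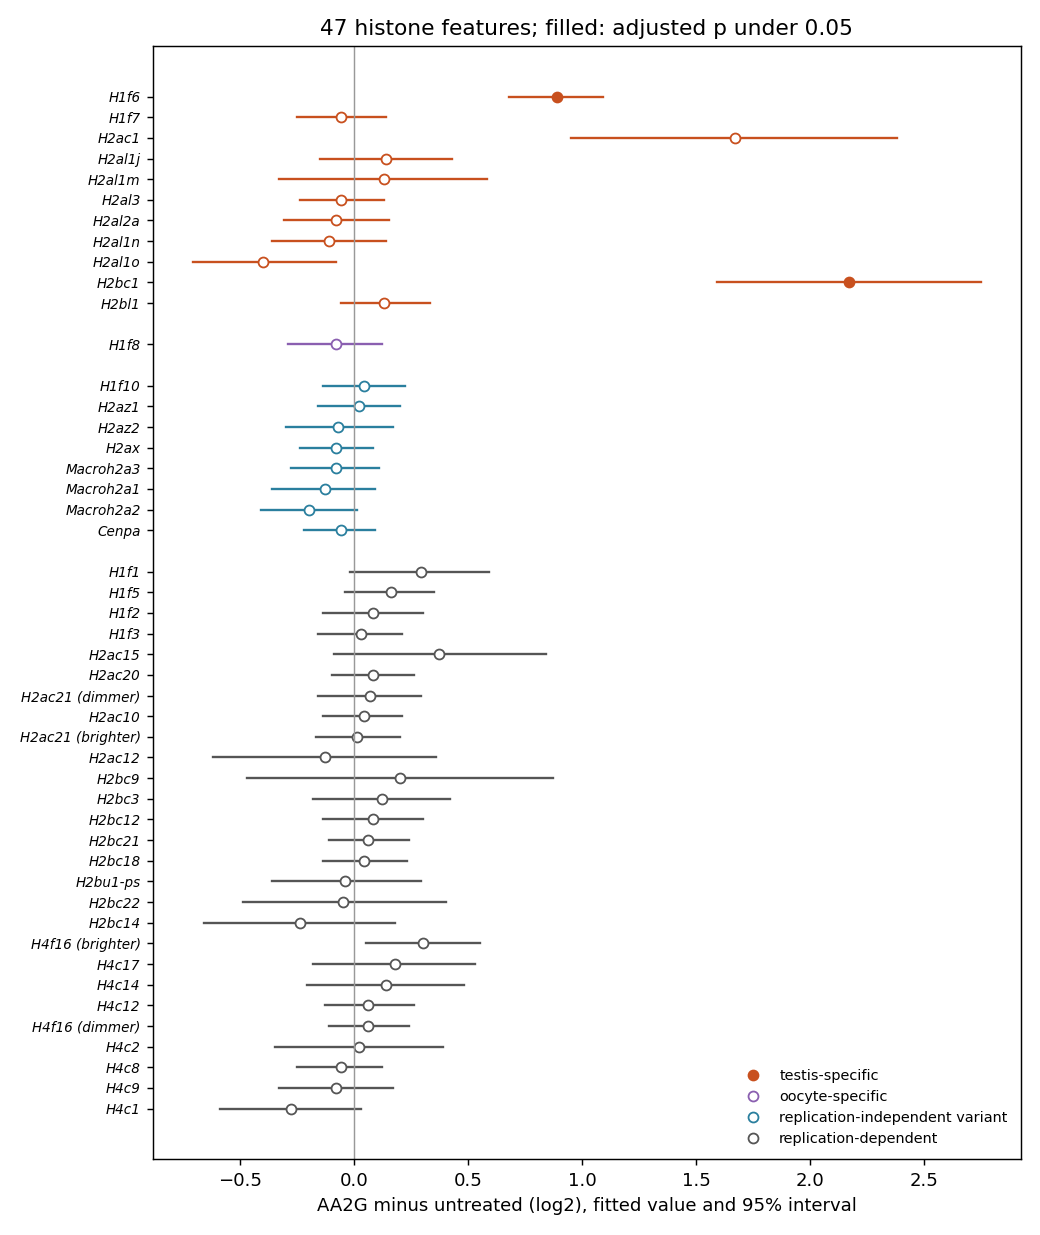
Fitted log2 difference, AA2G minus untreated, with its 95% interval for each of the 47 histone features, grouped by class and, within a class, by histone type. Filled points passed an adjusted p of 0.05; H2bc1 and H1f6 are filled, H2ac1 at 1.67 is open, and the other features lie between -0.40 and 0.37.

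H2bc1 encodes the testis-specific H2B that replaces somatic H2B in spermatocytes. On the log2 scale its values were 4.26, 4.30 and 4.42 on the untreated arrays and 5.94, 7.11 and 6.44 on the AA2G arrays. All AA2G arrays were above all untreated arrays, and the AA2G arrays were spread more widely, at a mean of 6.50 ± 0.59 (SD, n = 3) against 4.32 ± 0.08. The fitted rise was 2.17 ± 0.25 on the log2 scale (SE), or 4.5-fold, with a limma adjusted p of 0.00851. Only 5 of the 23521 features had a larger fitted rise. The call was lost without untreated replicate 3 (adjusted p = 0.0515, rise 2.22), and over the other settings the adjusted p ran from 0.00172 to 0.0497. Whether the untreated values lie above background is not known, as the files give no detection calls.

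H2ac1 encodes the testis-specific H2A, the partner of the H2bc1 product. Its values were 7.81, 8.79 and 8.51 on the untreated arrays and 9.42, 10.50 and 10.19 on the AA2G arrays. The groups did not overlap, and the smallest gap, between untreated replicate 2 and AA2G replicate 1, was close in size to the SD within each group. The means were 8.37 ± 0.50 and 10.04 ± 0.55 (SD, n = 3 each). The fitted difference was 1.67 ± 0.31 (SE), or 3.17-fold, with a 95% interval from 0.95 to 2.38, and it did not pass (limma adjusted p = 0.0711). It passed with a trended robust prior (adjusted p = 0.0314), with array weights (0.0139), with brighter features only (0.0458) and without AA2G replicate 1 (0.0325), while the adjusted p over the remaining settings without a block ran from 0.0614 to 0.239. Among the AA2G arrays, replicate 1 was lowest and replicate 2 highest for both H2ac1 and H2bc1. The untreated arrays had this order for H2ac1 too, but for H2bc1 untreated replicate 3 was highest.

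H1f6 encodes H1t, the linker histone of spermatocytes and spermatids. Its values were 4.63, 4.34 and 4.41 on the untreated arrays and 5.37, 5.31 and 5.36 on the AA2G arrays. The groups did not overlap, and the AA2G arrays were close to each other, with means of 4.46 ± 0.15 and 5.35 ± 0.03 (SD, n = 3 each). The fitted rise was 0.89 ± 0.09 (SE), or 1.85-fold, with a limma adjusted p of 0.00530. The call held in each setting that tested the feature, with each of the 6 arrays left out in turn among them, with an adjusted p from 0.000813 to 0.0444. Its level is low on this array, and the brighter-features fit, restricted to means above 4.99, did not include it.

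**Figure D3:**
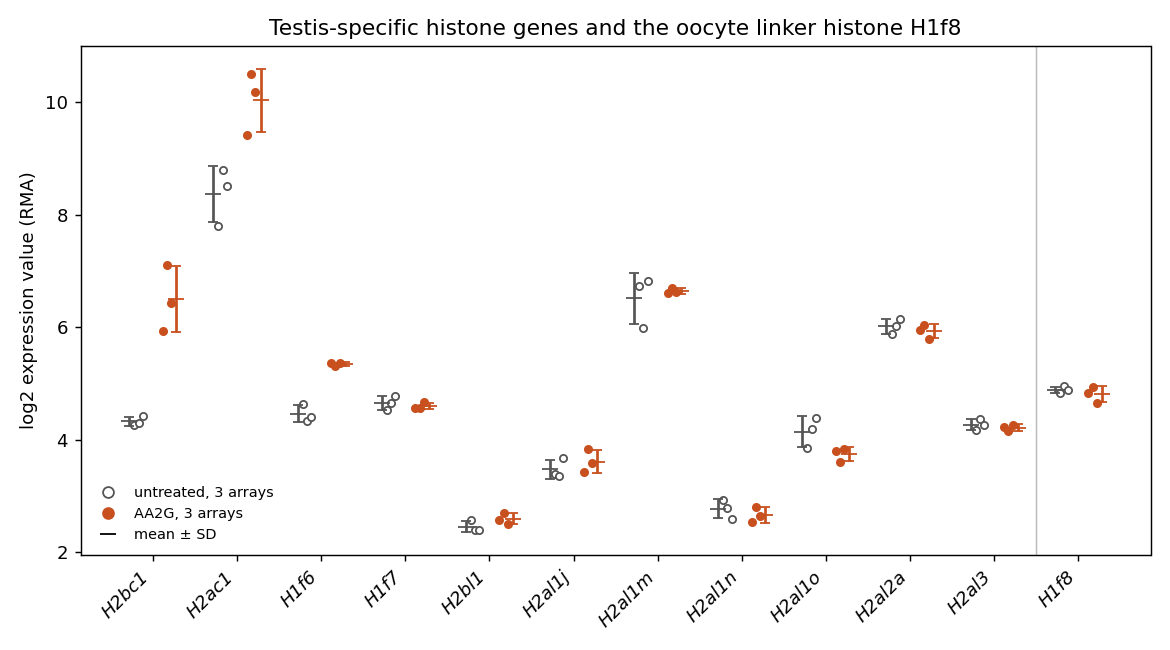
Log2 expression values of the 11 testis-specific histone genes and, right of the line, the oocyte linker histone H1f8, for the 3 untreated arrays (open) and 3 AA2G arrays (filled), with mean ± SD. AA2G arrays lie above untreated arrays without overlap for H2bc1, H2ac1 and H1f6, and below without overlap for H2al1o; levels of different genes are not comparable because probes differ.

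The other 8 testis-specific genes did not pass. H1f7, the linker histone H1T2 of the spermatid nucleus, averaged 4.65 ± 0.12 without and 4.60 ± 0.06 with AA2G (SD, n = 3 each), with an interval of the difference from -0.25 to 0.14. H2bl1, a testis H2B variant, was at 2.46 ± 0.10 and 2.59 ± 0.09, with an interval from -0.06 to 0.33. The H2al genes encode short H2A variants of late spermatids, and most of them lie on the X chromosome as near copies of each other, so single copies are uncertain. H2al1o had values of 3.85, 4.20 and 4.39 on the untreated arrays and 3.80, 3.61 and 3.84 on the AA2G arrays. The AA2G arrays were all lower, but the gap between untreated replicate 1 and AA2G replicate 3 was small. Its difference of -0.40 ± 0.14 (SE) did not pass (limma adjusted p = 0.371). The log2 differences were 0.14 for H2al1j, 0.13 for H2al1m, -0.11 for H2al1n, -0.08 for H2al2a and -0.06 for H2al3, with limma adjusted p between 0.802 and 0.898. H2al2a, whose product partners with H2bc1 protein in the spermatid nucleosome, was at 6.02 ± 0.13 and 5.94 ± 0.13 (SD, n = 3 each). The median over the 11 testis-specific features was 0.13, and 6 were positive and 5 negative. H1f8, the linker histone of the oocyte, was at 4.89 ± 0.05 and 4.80 ± 0.14.

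**Figure D4:**
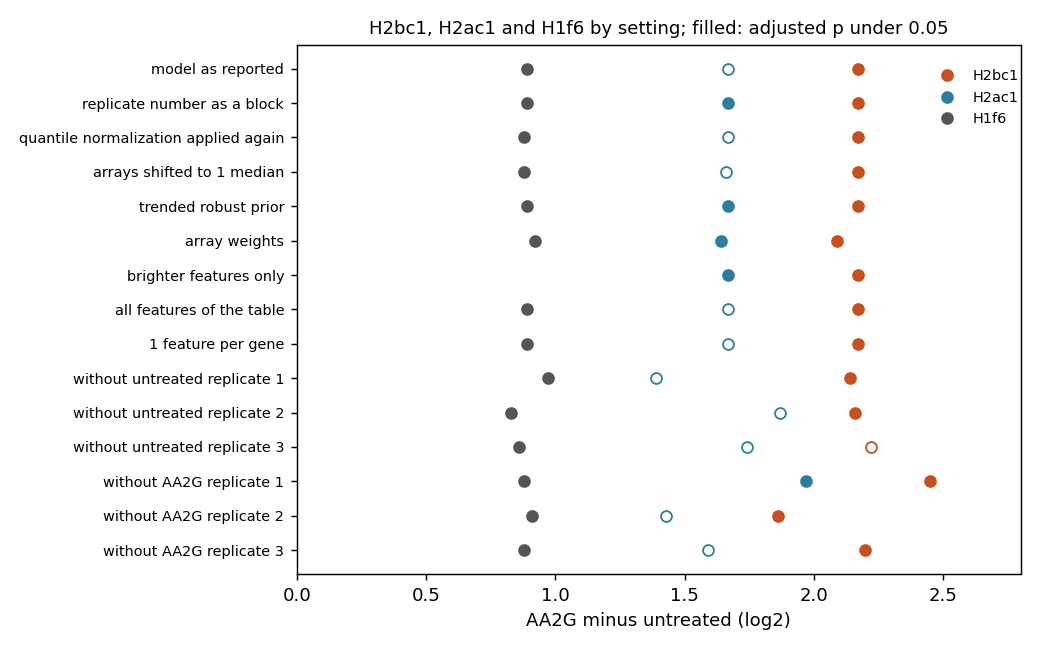
Fitted log2 difference, AA2G minus untreated, of H2bc1, H2ac1 and H1f6 under each setting of the model (rows), with filled points where the adjusted p was under 0.05. H2ac1 stays between 1.39 and 1.97 and is filled in 5 of 15 rows, H2bc1 is open without untreated replicate 3 and at 2.17 in the model as reported, and H1f6 is filled in each row that holds it.

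Among genes measured by a feature with exactly 1 symbol, those nearest to these 3 on chromosome 13 gave 0 calls, where 0.761% of all features passed. For H2bc1 and H2ac1, the 5 nearest measured genes on each side by RefSeq order lay between -0.14 and 0.31. The value of 0.31 belonged to Cmah, an enzyme gene of sialic acid metabolism. Its values were 4.85, 4.82 and 4.78 in untreated cells and 5.05, 5.16 and 5.17 with AA2G. It did not pass although the groups did not overlap (limma adjusted p = 0.146). Ripor2 at 0.23 (limma adjusted p = 0.306) and Slc17a2 at 0.14 (0.692) also lay higher without overlap and did not pass. Among all features 7.21% lay higher without overlap. H1f6 lies inside the large histone cluster, and 8 of its 10 nearest measured neighbours were histone genes. On one side these lay 12 to 19 genes away in RefSeq order, and on the other side 2 to 9. Closer genes had no feature with exactly 1 symbol, and histone features with several symbols are described below. The 10 neighbours lay between -0.28 for H4c1 and 0.20 for H2bc9, with a smallest adjusted p of 0.568.

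Replication-dependent histone genes, which supply chromatin in S phase, did not pass in any type. Of the 27 features, 0 passed in limma, where 0.761% of all features did. There were 20 positive and 7 negative values, and the median was 0.06, against -0.01 over all features. The brighter feature of H4f16 alone had an unadjusted p under 0.05, on the higher side, where 9.71% of all features had such a p in either direction. For none of the 27 did the groups separate without overlap, where 15.7% of all features did so in one direction or the other. The 95% interval lay within 0.5 of 0 on the log2 scale for 19 of them. The median deviation of these features from their untreated means was taken per array. It was -0.02, -0.06 and 0.11 on the untreated arrays. On the AA2G arrays it was 0.00, 0.06 and 0.11, so the groups overlapped.

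The 4 replication-dependent linker histone features had a median of 0.12 and were all positive. H1f1, a linker histone found in few tissues, had values of 5.40, 5.61 and 5.81 in untreated cells and 5.76, 6.12 and 5.80 with AA2G, and its difference of 0.29 ± 0.13 (SE) did not pass (limma adjusted p = 0.541). H1f5 was at 0.16 with an interval from -0.04 to 0.35. H1f2 and H1f3, both main somatic linker histones, were at 0.08 and 0.03.

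The 6 H2A features had a median of 0.05. H2ac15 was the most positive at 0.37 ± 0.20 (SE), with values of 4.59, 4.17 and 5.04 in untreated cells and 4.90, 4.84 and 5.17 with AA2G that overlapped. H2ac10, the brightest H2A feature, was at 11.75 ± 0.09 and 11.79 ± 0.03 (SD, n = 3 each), with an interval of the difference from -0.14 to 0.21. H2ac20 was at 0.08, the dimmer feature of H2ac21 at 0.07 and its brighter feature at 0.01, and H2ac12, of the head-to-head pair shown above, at -0.13 with an interval from -0.62 to 0.36.

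The 8 H2B features also had a median of 0.05, and the other H2B genes thus lay far from the value of 2.17 for H2bc1. H2bc12, the brightest of them and the partner of H2ac12, was at 10.24 ± 0.12 and 10.32 ± 0.12 (SD, n = 3 each), with an interval of the difference from -0.14 to 0.30. H2bc14 was the most negative at -0.24 ± 0.18 (SE; limma adjusted p = 0.751). H2bc3 was at 0.12, H2bc21 at 0.06 and the pseudogene H2bu1-ps at -0.04. The rest of the H2B features, H2bc9, H2bc18 and H2bc22, lay between -0.05 and 0.20.

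The 9 H4 features had a median of 0.06. The brighter feature of H4f16 averaged 9.97 ± 0.15 without and 10.27 ± 0.15 with AA2G (SD, n = 3 each). The groups overlapped narrowly, with untreated replicate 3 at 10.10 and AA2G replicate 2 at 10.09, and the difference of 0.30 ± 0.11 (SE) did not pass (limma adjusted p = 0.396), while the gene's dimmer feature was at 0.06. H4c1 was at -0.28 ± 0.14, H4c17 at 0.18 and H4c14 at 0.14. H4c12, the brightest H4 feature, was at 11.97 ± 0.12 and 12.03 ± 0.05 (SD, n = 3 each), with an interval of the difference from -0.13 to 0.26. The other 3 H4 genes lay between -0.08 and 0.02.

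The replication-independent variants also gave 0 limma calls, where 0.761% of all features were called and 9.71% had an unadjusted p under 0.05. Their median was -0.07, with 2 of 8 positive, 0 at an unadjusted p under 0.05, and each of the 8 intervals within 0.5 of 0. H2ax, whose product is phosphorylated at DNA breaks, had values of 11.75, 11.75 and 11.83 in untreated cells and 11.75, 11.68 and 11.68 with AA2G. The groups did not overlap in the unrounded values, but the difference of -0.08 ± 0.07 (SE) was close to its error. Cenpa, the H3 variant of the centromere, was likewise lower without overlap, at 9.40 ± 0.01 and 9.34 ± 0.05 (SD, n = 3 each), a difference of -0.06. Among all features 8.48% lay lower without overlap. H2az1 and H2az2, which encode the H2A.Z variants of promoters, were at 0.02 and -0.07, and the linker variant H1f10 was at 0.04.

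The macroH2A genes encode large H2A variants of repressed chromatin, including the inactive X chromosome. Macroh2a1 averaged 10.50 ± 0.16 without and 10.37 ± 0.09 with AA2G (SD, n = 3 each), a difference of -0.13 with an interval from -0.36 to 0.09. Macroh2a2 had values of 5.57, 5.84 and 5.77 against 5.48, 5.48 and 5.61, which overlapped, and its difference of -0.20 ± 0.09 (SE) did not pass (limma adjusted p = 0.523). The pseudogene Macroh2a3 was at -0.08.

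Many histone genes are so alike that the array cannot separate them, and 58 further features carry several symbols with at least 1 histone gene. Of these, 53 have values of their own, and the other 5 repeat them. Canonical H3 and H3.3 genes appear in this set only, because each of their features has several symbols. In the limma fit of all 41345 features, which called 0.317% (0.268% up and 0.0484% down), 0 of the 53 passed. At an unadjusted p under 0.05, which 7.9% of all features passed, 1 of the 53 was higher and 2 were lower. The groups did not overlap for 3 higher and 5 lower features, where 13.9% of all features showed this, 6.64% above and 7.29% below. The median was -0.07 for 12 features of canonical H3, -0.05 for 7 of H3.3, 0.07 for 9 of H2A, -0.08 for 8 of H2B, 0.06 for 5 of H4 and -0.08 for 10 of the H2al copies. The most negative was the feature of H2bu2 and H2bu1-ps, with values of 4.44, 3.82 and 4.24 in untreated cells and 3.59, 3.48 and 3.50 with AA2G. Its groups did not overlap, and its difference of -0.64 ± 0.16 (SE) did not pass (limma adjusted p = 0.300). The most positive was a feature of 7 H2al1 copies, at 0.32 ± 0.10 (adjusted p = 0.471). These 2 were picked after their values were seen.

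**Figure D5:**
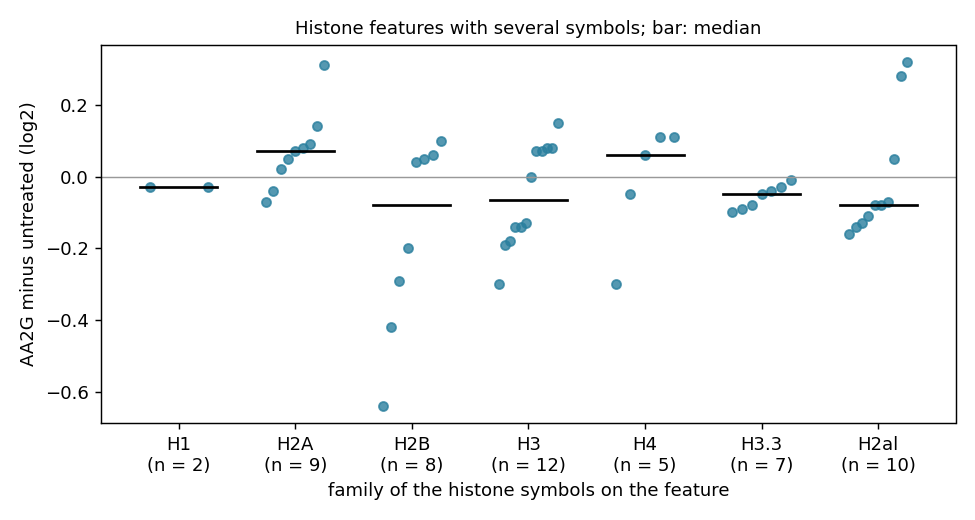
Fitted log2 difference, AA2G minus untreated, of the 53 histone features with several symbols and values of their own (points), grouped by the family of their symbols (the H1 group holds 1 feature that also carries H2B symbols), with bars for medians. The points lie between -0.64 and 0.32, and 0 of them passed the test.

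Genes that make, place or replace histones gave 0 limma calls in each of 3 lists. Among all tested features 0.761% passed, so 0 calls in lists of this size are near that share. Before adjustment, 9.71% of all features had a p under 0.05 in either direction. Of 15 genes for synthesis and processing of histone mRNA, 7 were positive, the median was -0.04 and 0 had an unadjusted p under 0.05. Those with the smallest unadjusted p were Zfp473, which acts with the U7 particle in 3′ end cleavage, at -0.15 ± 0.07 (SE), Npat, the coactivator of histone gene clusters, at -0.12 ± 0.07, and Eri1, an exonuclease of the histone stem-loop, at -0.13 ± 0.09. Of 24 measured chaperone and assembly genes, from a list of 29, 13 were positive, the median was 0.01 and only Ubn2 had an unadjusted p under 0.05. Ubn2, a subunit of the HIRA complex that deposits H3.3, had values of 7.78, 7.89 and 7.75 in untreated cells and 7.48, 7.49 and 7.44 with AA2G. The groups did not overlap, but the difference of -0.34 ± 0.07 (SE) did not pass (limma adjusted p = 0.109). It passed with array weights (0.0442) and with brighter features only (0.0476). Daxx, a chaperone of H3.3, was at -0.17 ± 0.08 and the H3 and H4 chaperone Asf1a at -0.25 ± 0.12.

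Of 14 measured genes for packaging of sperm chromatin, from a list of 16, 6 were positive, the median was -0.02 and only Chd5 had an unadjusted p under 0.05. Chd5, a remodeller needed for histone removal in spermatids, was at -0.25 ± 0.09 (SE), Nutm1, a spermatid cofactor of histone acetylation, at 0.17 ± 0.07, and the protamine gene Prm3 at -0.14 ± 0.09, with limma adjusted p between 0.421 and 0.689. The 22 measured S phase genes, from a list of 24, had a median of -0.06 with 16 negative values. Mcm7, of the replicative helicase, was at -0.13 ± 0.07, the transcription factor gene E2f1 at -0.15 ± 0.10 and the cyclin gene Ccne1 at -0.21 ± 0.14. The 11 measured mitosis genes, from a list of 12, had a median of -0.05, with the mitotic kinase gene Aurkb at -0.16 ± 0.08, the spindle motor gene Kif11 at -0.10 ± 0.07 and Top2a, a topoisomerase gene, at -0.09 ± 0.09. Both lists had 0 limma calls and 0 members at an unadjusted p under 0.05. The shares over all features were 0.761% and 9.71%. In the S phase list 6 genes lay lower and 1 higher without overlap, and in the mitosis list 2 lay lower and 0 higher. Among all features 8.48% lay lower and 7.21% higher without overlap.

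The medians of the 6 arrays ran from 5.06 to 5.1 (log2). Of the 8 pluripotency markers that define the cell type, 0 passed, where 0.761% of all features did. Of these, 3 lay lower without overlap, each at p under 0.05 before adjustment: Klf4 at -0.31, Nanog at -0.17 and Pou5f1 at -0.16. Among all features 8.48% lay lower without overlap, and 9.71% had such a p in either direction. The summed linear levels of the 8 did not overlap, at 9840 to 10000 on the untreated and 9260 to 9760 on the AA2G arrays, and did overlap without Nanog, at 7200 to 7460 and 6900 to 7520. The part of these lower values in the results on H2bc1 and H1f6 was not tested. Of the markers of primitive endoderm (6), trophoblast (6), neuroectoderm (4) and fibroblasts (5), 0 passed, which in sets this small is near that share of 0.761%. Among these, Sox7 (-0.20), Gata6 (-0.16), Krt8 (-0.35) and Sox1 (-0.19) also lay lower without overlap, and Col1a1 (0.17) lay higher. The summed levels of each set overlapped between the groups except for trophoblast. The trophoblast sums were 290 to 321 on the untreated and 255 to 286 on the AA2G arrays, or 183 to 219 and 174 to 200 without Krt8. Of 7 germ cell markers, limma called 2 higher, Dazl by 2.37 and Stra8 by 0.77, where 0.608% of all features were called higher. The other 5 did not pass, and the median of the 7 was 0.04. The summed linear level of the 7 was 460 to 489 on the untreated arrays and 979 to 1170 on the AA2G arrays, and 263 to 272 against 243 to 266 without these 2 genes. Ddx4, a defining germ cell helicase, was at -0.17, lower without overlap, and did not pass. Of 7 spermatid markers 0 passed, again near the share of 0.761% for a set this small. Odf1 made up 97.8% of their summed level in untreated cells, and the other 6 summed to 115 to 124 on the untreated and 123 to 124 on the AA2G arrays. Spaca1, a gene of the acrosome, lay higher without overlap, at 3.31 ± 0.10 and 3.57 ± 0.09 (SD, n = 3 each), and did not pass (limma adjusted p = 0.315). The part of germ cell-like cells in the rise of H2bc1 and H1f6 was not tested.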

How the data were processed

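RNA of 6 cultures was hybridised to 1 Affymetrix array each. The deposited values are log2 expression values that the authors made with RMA (Affymetrix Expression Console), as the submitters' processing notes name it. Versions and filters: not given in the sources used here. RMA applies quantile normalization, so changes in total RNA are not seen, and dim features understate fold changes. Detection calls are not part of the files, and whether a dim feature exceeds background is not known. The number of arrays limits the precision.

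Of 41345 features, 23521 had exactly 1 gene symbol in the platform annotation and were tested, 1814 had several symbols and 16010 had none listed. AA2G was compared with untreated cells with limma 3.58.1 in R 4.3.3 (lmFit, eBayes, two-sided, no covariate), with Benjamini-Hochberg adjustment over the 23521 features and a threshold of 0.05. Differences are AA2G minus untreated, with fitted standard errors and 95% intervals. p-values measure the spread between replicates, which the series' design text calls independent. The procedure was tested on simulated data with normal noise of each feature's residual spread. It recovered 38.3% of changes of 0.5 and 84.7% of changes of 1 on the log2 scale. For gene lists, the brightest feature of a gene was used. Members, classes and lists were chosen with earlier results of these data known, so lists are described by counts and medians only. Named genes are the testis, oocyte and variant members, per replication-dependent type the 4 with the smallest p and the brightest, and the 3 with the smallest p per pathway list. Testis-specific here means the members H1f6, H1f7, H2ac1, H2bc1, H2al and H2bl. Promoters were matched by Entrez Gene identifier to RefSeq entries of GRCm38.p6 for 40 of 45 genes. Alternatives were the replicate number as a block, quantile normalization repeated, array weights, a trended robust prior, a shift of arrays to 1 median, brighter features (mean above 4.99, percentile 40), all features, 1 feature per gene, and each array left out.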

Additional observations from a re-analysis of the deposited data

How the results depend on the processing

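The number of histone features called was 2 and ranged from 1 to 3 with an array left out: H1f6 alone without untreated replicate 3, and H2ac1 in addition without AA2G replicate 1. H2bc1 ranged from 1.86 to 2.45 and H2ac1 from 1.39 to 1.97 with an array left out. H2ac1 passed at 1.67 with a trended robust prior and with brighter features only, and at 1.64 with array weights. The samples share a replicate number without stated pairing: same-numbered arrays deviated from their group means with correlations of 0.231, 0.224 and 0.017, the last below the minimum of 0.1 for pairing, although each array correlated best with its own number. With the replicate number as a block, H2ac1 passed at 1.67 (limma adjusted p = 0.00225), so that 3 histone features were called, with H2bc1 (0.0366) and H1f6 (0.0249), and 155 features in all against 179.

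The testis-specific median of 0.13 was -0.03 with array weights, 0.90 with brighter features only, which leave 4 of the 11, and 0.00 to 0.14 with an array left out. The replication-dependent median of 0.06 fell to 0.00 when untreated replicate 2 was left out and to 0.02 for AA2G replicate 3, reached 0.11 when untreated replicate 3 was left out, and was 0.03 with array weights, while the variant median stayed between -0.08 and -0.05 in each setting. List medians with an array left out ranged from -0.08 to 0.00 for histone mRNA, -0.03 to 0.02 for chaperones, -0.05 to 0.02 for sperm packaging, -0.07 to -0.05 for S phase and -0.09 (without untreated replicate 2) to -0.01 (without untreated replicate 1) for mitosis. Sperm packaging was at -0.05 with brighter features only, S phase at -0.04 with array weights, and 1 chaperone gene, Ubn2, passed with both. The cause of these shifts was not tested.

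Of the 45 other member features, 17 that did not pass changed sign in some setting. With array weights these were the brighter feature of H2ac21 (-0.03), H4c2 (-0.02), H2al1m (-0.04), H2az1 (-0.03) and Macroh2a3 (0.00). With an array left out the ranges were -0.03 to 0.06 for H1f3, -0.01 to 0.07 for H2ac10, -0.34 to 0.02 for H2ac12, -0.02 to 0.06 for the brighter feature of H2ac21, -0.22 to 0.13 for H2bc22, -0.03 to 0.20 for H2bc3, -0.16 to 0.08 for H2bu1-ps, -0.01 to 0.11 for H4c12, -0.01 to 0.25 for H4c14, -0.08 to 0.20 for H4c2, -0.15 to 0.03 for H4c9, -0.12 to 0.00 for H1f7, -0.13 to 0.28 for H2al1m, -0.01 to 0.08 for H1f10, -0.02 to 0.06 for H2az1 and -0.16 to 0.01 for H2az2. Signs of such small differences are not settled. Dim features limit the fold changes of H2bc1 and H1f6.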
